A study of Mus musculus with 4 samples.

Results

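The 10 genes described here, which belong to vascular growth signalling, were followed across the cells of mouse lung tumours: 5 ligands (Vegfa, Vegfc, Pgf, Angpt1 and Angpt2) and 5 receptors (Kdr, Flt1, Flt4, Tek and Tie1). They were chosen by symbol, and all 10 were found among the 32289 features of the count tables. Each cell carries counts of unique molecular identifiers (UMIs), the tags that mark single RNA molecules, from droplet 3′ single-cell RNA sequencing. The series holds 4 libraries, 1 for each combination of treatment (vehicle or tamoxifen) and cell preparation (before or after magnetic bead depletion of CD45+ and CD31+ cells). All 4 share 1 genotype, which includes p53frt, Rosa-FSF-CreERT2 and Hnf4aflox, and all received an adenovirus carrying FlpO under the mouse Spc promoter. The recombinase Flp removes p53 and switches on CreERT2, so tamoxifen can delete Hnf4a only in cells that Flp had reached. Injection followed infection by 10 weeks and collection followed injection by 2 weeks. The vehicle is named differently in different labels and is called vehicle here. Strain, age, the number of animals and whether tumours were pooled are not given in the sources used here, and neither is whether a library before depletion and its partner after depletion came from the same animals.

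Vegfa, Vegfc and Pgf (placental growth factor) are secreted members of the vascular endothelial growth factor family. Vegfa binds Kdr (VEGF receptor 2, the main signalling receptor of blood vessel endothelium) and Flt1 (VEGF receptor 1, which binds Vegfa tightly but signals weakly), Pgf binds Flt1, and Vegfc acts mainly through Flt4 (VEGF receptor 3), best known from lymphatic vessels and sprouting tips. Angpt1 activates the receptor Tek (Tie2) and steadies vessels, Angpt2 is a context-dependent agonist or antagonist of Tek released by activated endothelium, and Tie1 is a partner of Tek without a high-affinity ligand of its own among these genes. In the healthy lung the alveolar epithelium, alveolar type 1 cells above all, is a known source of Vegfa for the capillaries beside it.

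Endothelial promoters are known for sites of ETS-family transcription factors, whose core is GGAA. The 250 bases upstream of the RefSeq start (GRCm38.p6) are therefore shown for the 2 receptors whose UMIs were most concentrated in endothelium (Kdr and Tie1), for Tek, and for Flt1, the receptor also counted in tumour epithelium. They are written 5′ to 3′ on the gene's strand, and capitals mark GGAA on either strand (TTCC where it lies on the other strand). The windows are chr5:75978456-75978705 (minus strand) for Kdr, chr5:147726012-147726261 (minus) for Flt1, chr4:94739039-94739288 (plus) for Tek and chr4:118489850-118490099 (minus) for Tie1.
Kdr: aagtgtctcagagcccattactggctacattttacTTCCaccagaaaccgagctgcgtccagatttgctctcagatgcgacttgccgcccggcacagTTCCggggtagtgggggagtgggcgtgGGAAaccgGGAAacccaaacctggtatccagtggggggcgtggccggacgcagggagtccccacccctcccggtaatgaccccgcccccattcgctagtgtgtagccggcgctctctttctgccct
Flt1: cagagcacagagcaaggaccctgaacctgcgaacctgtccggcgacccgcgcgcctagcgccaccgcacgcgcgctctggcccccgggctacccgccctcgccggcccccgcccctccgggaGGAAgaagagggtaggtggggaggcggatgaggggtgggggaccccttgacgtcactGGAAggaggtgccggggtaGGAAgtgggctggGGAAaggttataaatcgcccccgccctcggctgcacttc
Tek: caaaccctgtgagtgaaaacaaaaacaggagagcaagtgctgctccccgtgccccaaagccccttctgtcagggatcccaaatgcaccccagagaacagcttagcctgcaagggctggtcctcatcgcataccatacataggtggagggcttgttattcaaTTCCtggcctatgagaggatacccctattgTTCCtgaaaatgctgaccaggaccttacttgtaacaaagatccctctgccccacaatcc
Tie1: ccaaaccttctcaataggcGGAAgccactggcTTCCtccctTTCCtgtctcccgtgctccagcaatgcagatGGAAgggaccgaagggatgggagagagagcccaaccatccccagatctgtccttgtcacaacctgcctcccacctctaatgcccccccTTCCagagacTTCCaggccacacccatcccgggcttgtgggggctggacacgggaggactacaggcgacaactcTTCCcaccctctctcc
The Tie1 window held 7 matches, the Kdr and Flt1 windows 4 each and the Tek window 2. Over 27025 windows of this length the median was 3 matches, 33.4% held at least 4 and 3.77% at least 7, so the count for Tie1 lay in the upper tail and those of Kdr, Flt1 and Tek did not. By the GENCODE coordinates Tie1 begins at 118490061 on the minus strand. Most of its window, upstream of the RefSeq start, thus lies inside that gene span, unlike those of Kdr, Flt1 and Tek. Among the other members with a window, Vegfa held 6 and 2 matches at its 2 starts, Flt4 2, Vegfc 1 and Pgf none at either start. The longer letters CCGGAA (either strand, overlapping GGAA), present in 12.2% of windows, occurred once in the Kdr window and in no other member's. The hypoxia core ACGTG (either strand), present in 16.6% of windows, occurred once at the second Vegfa start only. These matches describe letters in these windows and were not tied to binding or to any level below.

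After filtering, 7079 cells were kept in the vehicle library before depletion, 6923 in the vehicle library after depletion, 6111 in the library labelled tamoxifen before depletion and 7358 in the library labelled tamoxifen after depletion. Values are given in this order throughout. Median depth was higher after depletion (17733 and 16484.5 UMIs per cell) than before (9302 and 9894), and pairs of libraries shared 10 to 18 barcodes. Hnf4a, the targeted gene, stood at 51.1, 51.2, 83.9 and 80.1 CPM (counts of the gene per 1000000 UMIs of the class) in epithelial cells, higher in the libraries labelled tamoxifen. A 3′ tag does not show whether a transcript carries the floxed exon, so these counts check neither the deletion nor the labels. Cells were clustered without the 10 genes and named by marker genes, giving 1038, 6230, 1043 and 6699 epithelial-like cells, 158, 167, 154 and 124 endothelial-like cells and 119, 196, 84 and 115 stromal cells (fibroblast-like, mural-like and mesothelial-like). Immune cells were nearly absent after depletion, and the endothelial cells there are those that escaped the CD31 beads, so no share of a class is compared across preparations. The endothelial class carried its defining markers: Pecam1, which encodes CD31, had a UMI in 95.6% to 99.4% of its cells. With 1 library per group, and the 2 preparations not shown to be independent samples, no test between treatments was made. Intervals are exact 95% intervals and cover counting error only, not the spread between animals. A gene is called apart where the libraries differed at least 2-fold on log2(CPM + 1), with at least 10 CPM in one of them and at least 20 UMIs over both.

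Epithelial-like cells were the largest source of Vegfa, the central ligand, in each library. They held 47.2% and 55.4% of all Vegfa UMIs before depletion and 85.5% and 86.6% after it, when the beads had taken out most immune cells. Their level was 163 (159 to 168), 136 (134 to 138), 137 (133 to 141) and 128 (126 to 130) CPM, from between 4538 and 17528 UMIs per library. The library labelled tamoxifen was lower in both preparations, at 0.84 times the vehicle level (0.806 to 0.874) before and 0.939 times (0.919 to 0.959) after depletion, and neither difference reached 2-fold. The gap between the 2 vehicle preparations, 0.834 times, was as wide as the widest of these. In cells thinned to 2000 UMIs, 30%, 23.4%, 23.5% and 22.9% of epithelial-like cells had a Vegfa UMI. In the libraries before depletion, 1.46% and 3.17% of B cells and 1.69% and 1.34% of T cells had one. How much of these lower shares is background from free RNA was not tested.

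**Figure D1:**
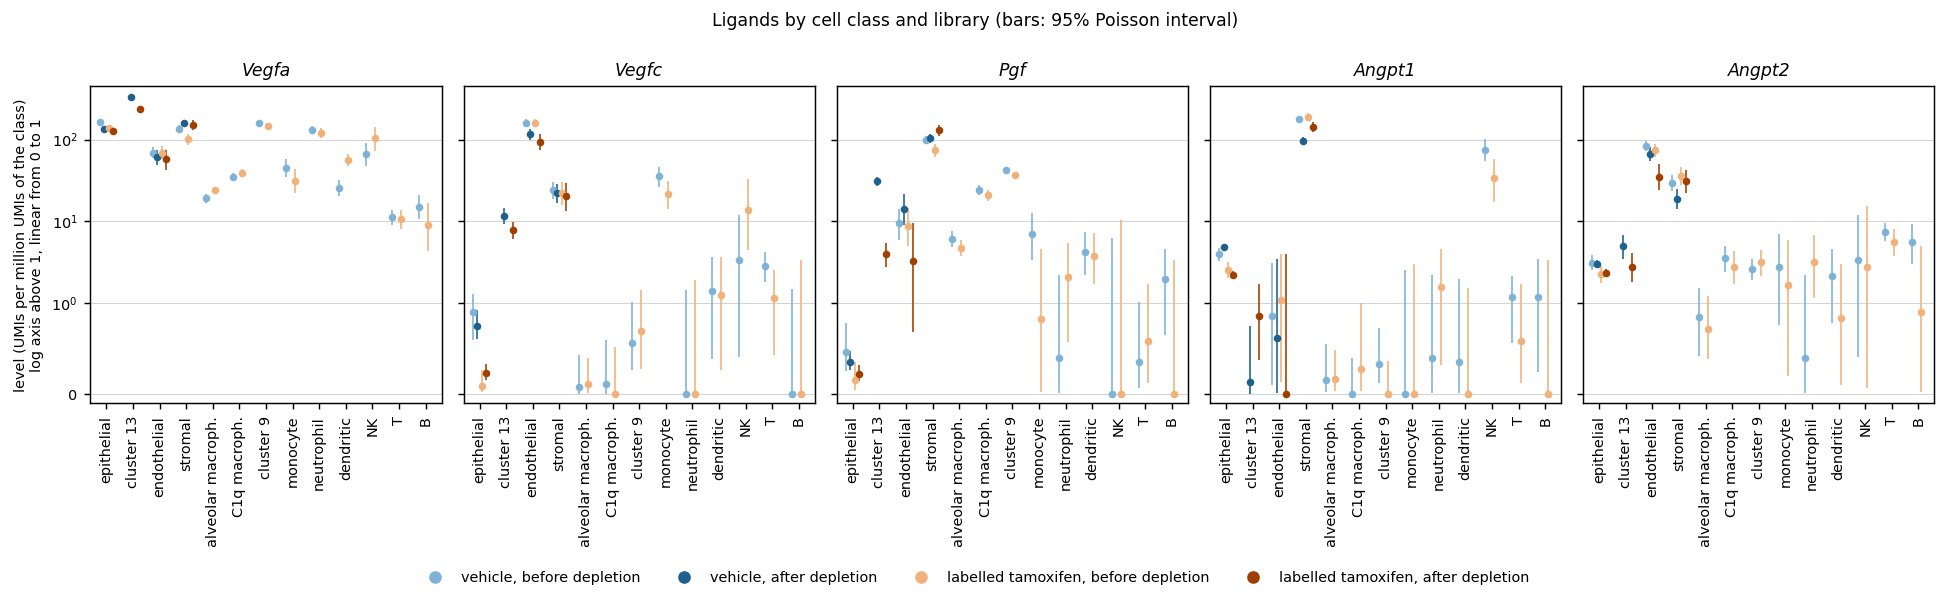
Levels of the 5 ligands (CPM, logarithmic above 1 and linear from 0 to 1) in cell classes with at least 50 cells in a library. Points are the 4 libraries and bars exact 95% Poisson intervals. Vegfa stood between 128 and 163 CPM in epithelial-like cells, Angpt1 between 96.0 and 189 CPM in stromal cells and Vegfc between 94.4 and 161 CPM in endothelial-like cells.

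Within the epithelium, alveolar type 1-like cells (the thin gas-exchange type, marked here by Hopx, Ager and Rtkn2) had the highest Vegfa of the named states in all 4 libraries, 354, 272, 225 and 208 CPM. The next was a transitional state marked by Cldn4 and Krt7, at 222, 179, 176 and 155 CPM. Lyz1-high alveolar type 2-like cells, the surfactant-producing type, stood at 134, 101, 128 and 110 CPM, the Rbp4 Agr2 Phgr1 state, led by gastrointestinal genes, at 140, 121, 112 and 133 CPM, and the Dlk1 Bpifa1 state at 132, 125, 107 and 101 CPM. The order of these 3 states differed from library to library, whereas cycling cells were the lowest named state in every library, at 98.6, 92.9, 76.8 and 80.5 CPM. Under 50 cells gave the third value of the Rbp4 Agr2 Phgr1 state and the first of the Dlk1 Bpifa1 state. The same holds for both values of cycling cells before depletion. Vegfa was lower in the library labelled tamoxifen in the alveolar type 1-like state, at 0.634 times vehicle (0.569 to 0.707) before and 0.765 times (0.722 to 0.811) after depletion, and in the transitional state, at 0.795 and 0.864 times. In the Lyz1-high state the ratios were 0.953 and 1.09, so the 2 preparations did not share a direction there. The differences between states in these ratios were not tested.

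The states themselves were present in unequal numbers. The Rbp4 Agr2 Phgr1 state made up 11.3% and 19.1% of epithelial-like cells in the vehicle libraries and 1.53% and 2.13% in those labelled tamoxifen, and the Dlk1 Bpifa1 state 3.56% and 7.88% against 28.6% and 32.4%. With each labelled tamoxifen library set to the sub-cluster make-up of its vehicle partner, the log2 difference of Vegfa was -0.10 before and 0.02 after depletion. This used only the sub-clusters with at least 50 cells in both libraries, 3 before and 13 after depletion. Those 3 stood at 173 CPM with vehicle and are only part of the class. Over the 13 epithelial sub-clusters with at least 50 cells in both libraries after depletion, Vegfa was lower in 6 and higher in 7.

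One further epithelial-related population, cluster 13, led by Pyy, Aldh1a3, Hmga2 and Npy, stayed outside the class because the marker rules left it unnamed. It held 42, 296, 44 and 389 cells, 2 of the libraries being under 50 cells. Its Vegfa level, 411, 329, 260 and 236 CPM, was above that of each named epithelial state in every library. Pgf, at 0.151 to 0.466 CPM in the epithelial-like class, stood at 12, 30.9, 0 and 3.97 CPM in cluster 13. After depletion, 37 Pgf UMIs in the library labelled tamoxifen stood against 229 in the vehicle library, 7.78-fold lower (5.48 to 11.3). Of 4 members that could be compared in cluster 13 after depletion, Pgf alone was apart, where 2.73% of all genes were. Flt4 in the same cells was 4.32 and 9.56 CPM after depletion, 2.21 times higher (1.46 to 3.42) in the library labelled tamoxifen but under 10 CPM in both.

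Stromal cells also carried Vegfa, at 135, 157, 100 and 150 CPM, with ratios of 0.744 and 0.952 between treatments. Among their sub-clusters, 53 fibroblast-like cells led by Il11 and Spp1 stood at 297 CPM over all libraries and the 30 mesothelial-like cells of the vehicle library after depletion at 281 CPM. In the libraries before depletion, the myeloid cells with the highest Vegfa were cluster 9 and the neutrophil-like cells. Cluster 9 was led by Dcstamp, Asgr2, Mgl2 and Ccl17, a mix of macrophage and dendritic genes, and stayed unnamed. It had 160 (154 to 166) CPM with vehicle and 147 (140 to 155) CPM in the library labelled tamoxifen, which was 27.6% and 18.1% of all Vegfa UMIs there. Neutrophil-like cells had 131 and 120 CPM, and within them the cluster led by Acod1 had 162 and 152 CPM and the cluster led by Retnlg 43.5 and 7.17 CPM. Monocyte-like cells (45.1 and 31.4 CPM), C1q macrophage-like cells (34.6 and 39 CPM) and alveolar macrophage-like cells (19.3 and 23.9 CPM) stood lower, against 15.2 and 9.05 CPM in B cells and 11.3 and 10.7 CPM in T cells. NK-like cells had 67.1 and 103 CPM. Dendritic-like cells had 25.8 and 56.0 CPM, 2.17 times higher (1.62 to 2.93) in the library labelled tamoxifen. Vegfa was there the 1 of 2 members compared that was apart, where 3.34% of all genes were.

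Pgf was counted in stroma, in cluster 9, in C1q macrophage-like cells and in cluster 13. Stroma held 19.2% and 16.4% of its UMIs before depletion and 47.6% and 71.4% after it, and cluster 13 held 40% and 15.8% after it. Stromal cells stood at 98.9, 103, 74.2 and 130 CPM, the labelled tamoxifen library being lower before depletion (0.75 times) and higher after it (1.26 times). Mural-like cells, the pericytes and smooth muscle around vessels, stood above the class, at 344, 229, 153 and 241 CPM, each from under 50 cells. Before depletion, cluster 9 had 42.8 and 36.4 CPM, which made up 52.9% and 47.3% of all Pgf UMIs, and C1q macrophage-like cells 24.3 and 20.9 CPM, a further 15.6% and 19.4%. In cluster 9 none of 3 members compared was apart between treatments (background 0.875% of genes), and likewise none of 3 in C1q macrophage-like cells (0.821%), of 3 in monocyte-like cells (4.51%), of 2 in neutrophil-like cells (3.93%) and of 2 in alveolar macrophage-like cells (0.469%).

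Endothelium itself was the largest source of Vegfc in each library, with 63.7%, 43.4%, 72.4% and 40.2% of its UMIs. After depletion cluster 13 held a further 20.3% and 34.1%. Endothelial-like cells stood at 161, 116, 158 and 94.4 CPM, stromal cells at 20.3 to 24.1 CPM and monocyte-like cells before depletion at 35.4 and 21.5 CPM. Treatment ratios in endothelium were 0.985 and 0.816, smaller than the steps between preparations, 0.719 and 0.596. In epithelial-like cells Vegfc was scarce, with 27, 97, 3 and 29 UMIs. The libraries labelled tamoxifen were lower by counting there, at 0.101 times (0.0196 to 0.328) and 0.309 times (0.196 to 0.471) the vehicle level, but every level was under 1 CPM and so outside the comparison. Without the Rbp4 Agr2 Phgr1 state the log2(CPM + 1) difference of Vegfc shrank from -0.80 to -0.20 before and from -0.51 to -0.12 after depletion. Set to the vehicle make-up of sub-clusters, the difference was -0.41 before (3 sub-clusters) and -0.59 after depletion (13 sub-clusters). After depletion Vegfc was lower in 2 of 2 sub-clusters with at least 20 UMIs. At such levels the 1 CPM added draws differences towards 0, and with 0.1 CPM added the whole class gave -2.39 and -1.36. Coarser epithelial clusters differed in direction after depletion. Cluster 12, led by Mcpt2, held 22 vehicle and 3 labelled tamoxifen UMIs, and cluster 14, led by Rtkn2, held 1 and 12. The part of the Rbp4 Agr2 Phgr1 state in the class difference was not tested.

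Angpt1, the Tek agonist, had its highest class level in stroma, at 178, 96.0, 189 and 144 CPM. Stromal cells held 71.6% and 74.1% of its UMIs before depletion and 29.1% and 39.3% after it, where the far more numerous epithelial-like cells held 70.7% and 58.8%. The treatment ratio was 1.06 before and 1.49 (1.23 to 1.81) after depletion, while the vehicle library after depletion stood at 0.54 times the one before. Neither step was seen in the fibroblast-like cells alone. Their treatment ratio after depletion was 0.947 (0.713 to 1.25), and their vehicle level after depletion was 0.943 times (0.755 to 1.17) that before. The part of the stromal make-up in the class ratios was not tested. A fibroblast-like sub-cluster stood at 282 CPM over all libraries, and the Il11 Spp1 sub-cluster, high in Vegfa, at 35.3 CPM. Epithelial-like cells stood far lower, at 3.99, 4.81, 2.54 and 2.21 CPM. The Rbp4 Agr2 Phgr1 state stood above the class, at 12.8, 13.4, 5.84 and 7.81 CPM, the third value from under 50 cells. The class ratios of 0.636 and 0.459 became positive log2 differences of 0.43 and 0.44 without that state. Set to the vehicle make-up of sub-clusters, the log2 difference was 0.03 before (3 sub-clusters) and -0.41 after depletion (13 sub-clusters). The part of that state in the class difference was not tested. In NK-like cells before depletion, 45 and 12 UMIs gave 75.5 and 33.4 CPM, 2.26-fold lower (1.17 to 4.69) in the library labelled tamoxifen, and Angpt1 was the 1 of 2 members apart where 7.13% of genes were. The gene overlaps Gm17473 on the other strand, and whether the counting used strand is not given in the sources used here.

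Angpt2, released by activated endothelium, stood in endothelial-like cells at 83.7 (72.3 to 96.3), 67.2 (55.1 to 81.1), 73.7 (61.7 to 87.3) and 35.1 (24.0 to 49.6) CPM. The library labelled tamoxifen after depletion, with 32 UMIs, lay below the other 3. It was 1.91-fold lower (1.28 to 2.93) than the vehicle library after depletion, short of 2-fold, and 2.1-fold lower (1.42 to 3.19) than its own partner before depletion, which was apart. The former difference passed 2-fold as a mean over cells (log2 -1.20) and without the neutrophil-led and epithelial-led sub-clusters (log2 -1.02). The endothelial-like cells of unnamed type stood the other way round before depletion, with 26 UMIs at 22.0 CPM for vehicle and 54 UMIs at 65.9 CPM for labelled tamoxifen, 3 times higher (1.85 to 4.99). Angpt2 was there the 1 of 8 members apart, where 7.77% of genes were. The vehicle library after depletion stood at 57.5 CPM with 40 UMIs in this unnamed type. That was 2.62 times (1.56 to 4.47) the vehicle level before depletion and likewise apart. Stromal cells stood at 29.4, 18.9, 36.2 and 31.2 CPM, with a Myh11-led mural-like sub-cluster at 150 CPM over all libraries. In epithelial-like cells, at 2.27 to 3.13 CPM, the share of thinned cells with a UMI was no higher than the 1.42% and 1.04% of T cells. Over all libraries Angpt2 ran from 0.569 CPM (0.361 to 0.854) in Lyz1-high cells to 4.23 CPM (3.66 to 4.86) in transitional cells. After depletion it was lower in the library labelled tamoxifen in 8 and higher in 1 of 9 sub-clusters with at least 20 UMIs. The class levels were under 10 CPM, and how much of them is background was not tested. Angpt2 lies within Mcph1 on the other strand, and the counts cannot be told apart if strand was not used.

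Kdr and Tie1 marked the endothelium most sharply among the receptors. Endothelial-like cells held 95%, 98.4%, 92.3% and 93.8% of all Kdr UMIs and 96.0%, 95.8%, 94.0% and 96.6% of all Tie1 UMIs. Kdr stood at 496 (468 to 526), 509 (475 to 546), 481 (449 to 514) and 519 (473 to 568) CPM, and its treatment ratios were 0.969 (0.886 to 1.06) and 1.02 (0.908 to 1.14). Tie1 stood at 226, 200, 225 and 190 CPM, with ratios of 0.994 and 0.951. The intervals of the 4 libraries overlapped for both genes. In thinned cells, 54.9%, 57.1%, 49.3% and 55.7% of endothelial-like cells had a Kdr UMI.

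**Figure D2:**
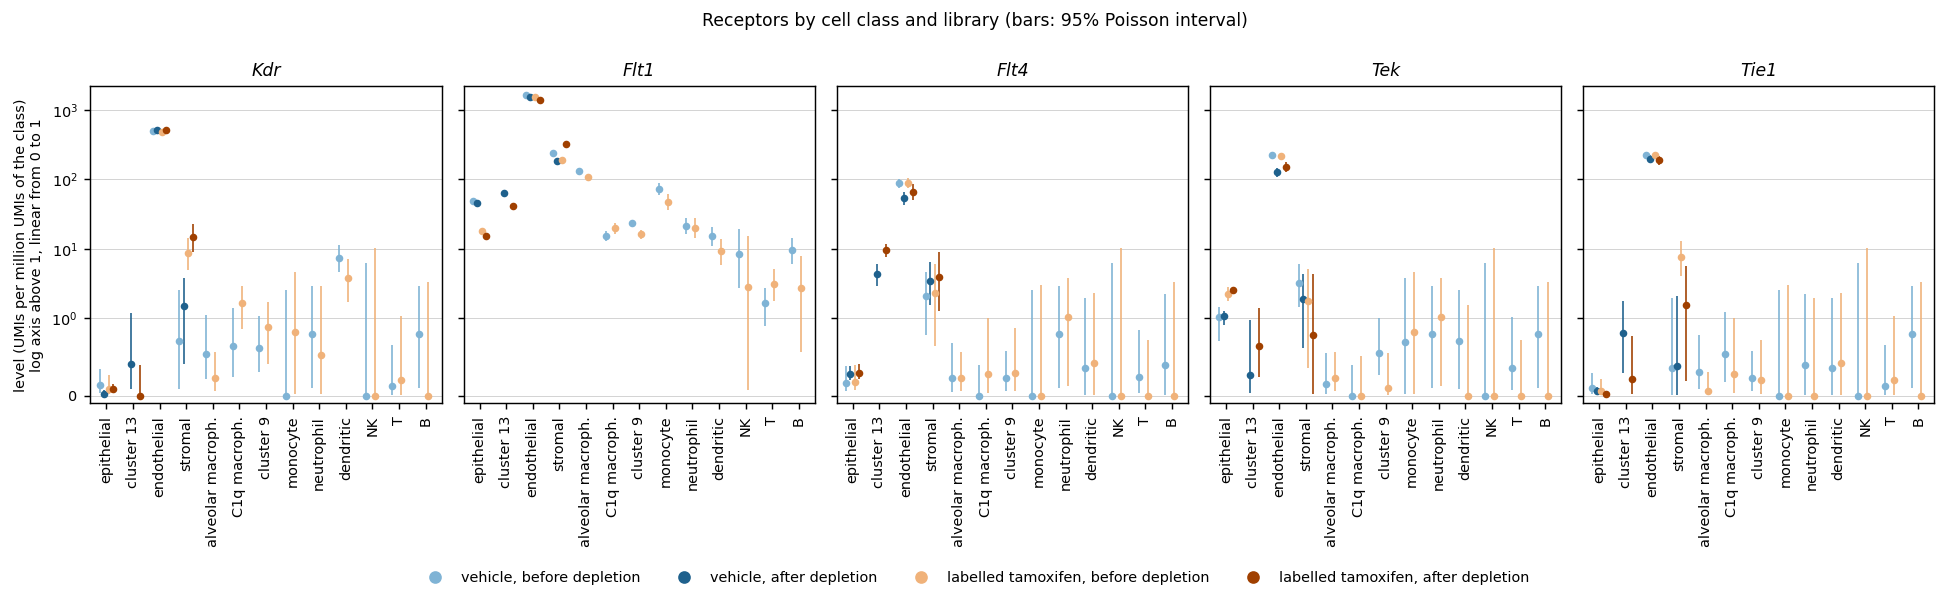
Levels of the 5 receptors (CPM, logarithmic above 1 and linear from 0 to 1) in the same classes, points for libraries and bars for exact 95% Poisson intervals. Kdr (481 to 519 CPM) and Tie1 (190 to 226 CPM) stood high in endothelial-like cells, whereas Flt1 was also counted in stromal, alveolar macrophage-like and epithelial-like cells.

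Tek, the angiopoietin receptor, stood in endothelium at 224, 126, 218 and 150 CPM, and Flt4 at 87.5, 53.5, 88.6 and 66.9 CPM. Tek was lower after depletion under either treatment label, at 0.564 times (0.477 to 0.665) and 0.689 times (0.563 to 0.839) its level before. Flt4 was at 0.611 times (0.469 to 0.79) with vehicle and at 0.755 times in the libraries labelled tamoxifen, where the interval of 0.553 to 1.02 included 1, while the treatment ratios were 0.975 and 1.19 for Tek and 1.01 and 1.25 for Flt4. Prox1, the regulator of lymphatic identity, stood at 27.6, 5.0, 7.2 and 8.8 CPM in the same cells, highest in the vehicle library before depletion. Its part in the Flt4 level was not tested. In the epithelium Tek was rare, at 1.03, 1.09, 2.27 and 2.57 CPM, which was 2.2 times (1.43 to 3.46) and 2.36 times (1.93 to 2.9) the vehicle level in the libraries labelled tamoxifen. In the Dlk1 Bpifa1 state it stood at 1.54, 1.21, 3.3 and 3.9 CPM, the first value from under 50 cells. These levels were under 10 CPM. Before depletion the direction turned as a mean over cells (log2 -0.42) and under a gate on each cell (log2 -0.48). At the vehicle make-up of sub-clusters the log2 difference fell to 0.14 before (3 sub-clusters) and 0.08 after depletion (13 sub-clusters). Those 3 sub-clusters are only part of the class.

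Flt1, the decoy-like receptor of Vegfa and Pgf, stood in endothelium at 1623, 1537, 1556 and 1397 CPM, with treatment ratios of 0.958 and 0.909 (0.849 to 0.973). Endothelium held 43.5%, 26.3%, 44.8% and 32% of its UMIs, less than for Kdr or Tie1. Alveolar macrophage-like cells before depletion stood at 131 (124 to 137) and 107 (102 to 112) CPM, and 23% and 18.4% of their thinned cells had a UMI. Monocyte-like cells stood at 73.5 and 48 CPM and stromal cells at 238, 183, 191 and 319 CPM. Mural-like cells stood highest, at 1183, 793, 645 and 910 CPM, each from under 50 cells, and fibroblast-like cells stood at 14.2 to 76.2 CPM. In stroma the library labelled tamoxifen was lower before depletion (0.804 times) and higher after it (1.74 times, 1.52 to 1.99).

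**Figure D3:**
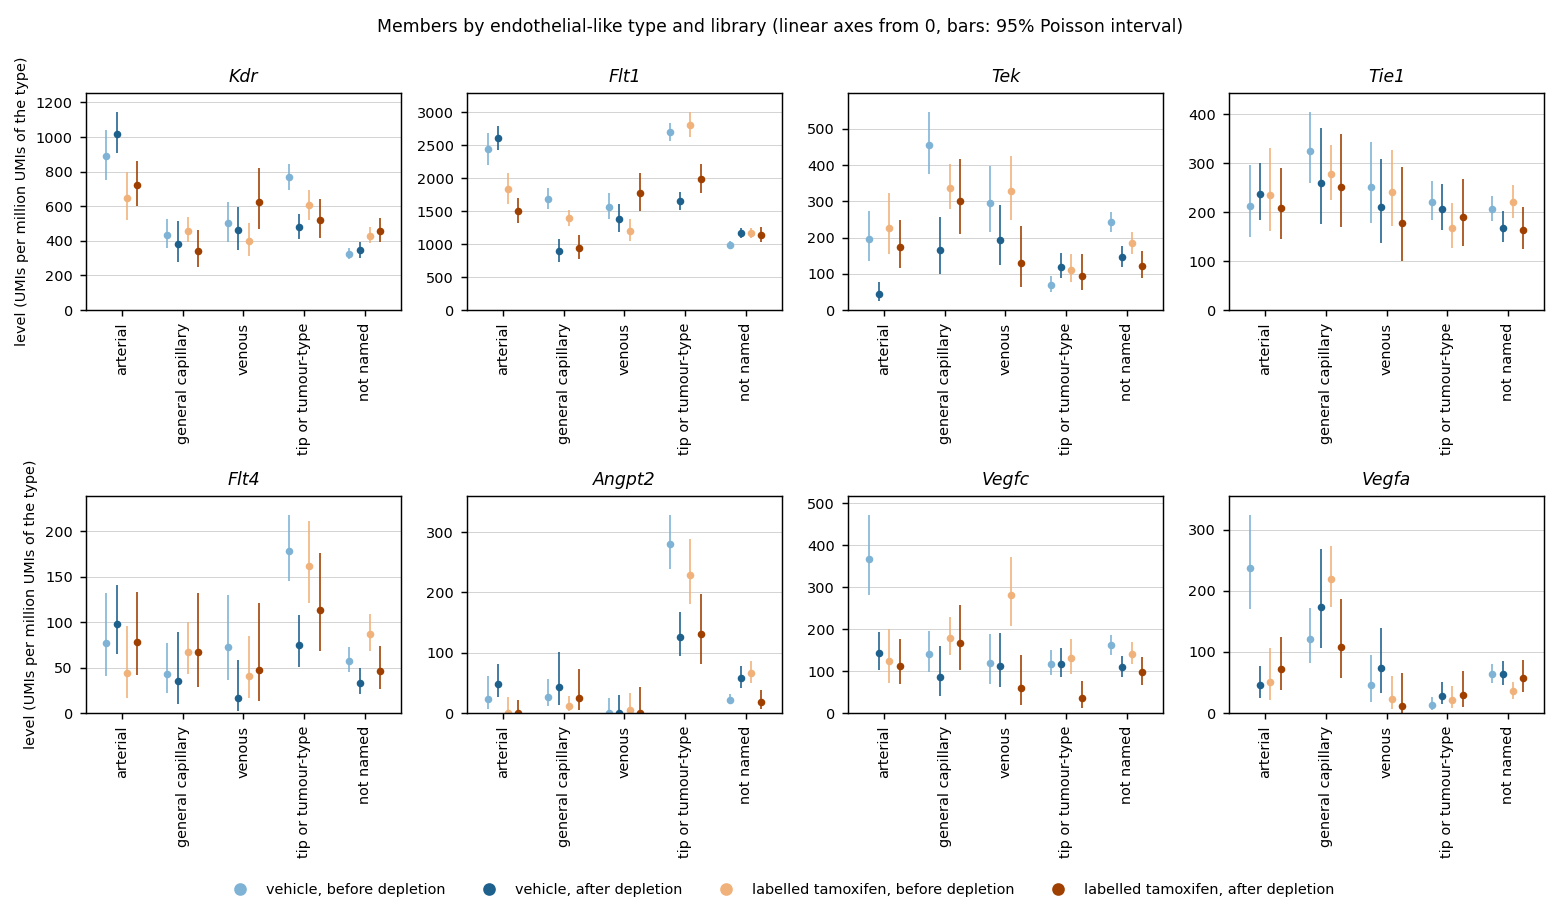
Levels of 8 members (CPM, linear axes from 0) in endothelial types named by markers, with points for libraries and exact 95% Poisson intervals. Tip-like cells were high in Angpt2 and Flt4 (127 to 280 and 75.1 to 178 CPM) and low in Tek (69.6 to 119 CPM), and general capillary-like cells were high in Tek (165 to 455 CPM).

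The receptors were unevenly spread over the named endothelial types, each of 9 to 46 cells in a library. Arterial-like cells had the highest Kdr of the types in every library, at 889, 1018, 646 and 722 CPM, against 435, 382, 460 and 343 CPM in general capillary-like cells. A sub-cluster of 17 cells led by Rgs6, Pcolce2, Sema5a and Fibin, which stayed unnamed, reached 1578 CPM of Kdr with 19.4 CPM of Tek over all libraries. Tek stood at 455, 165, 336 and 301 CPM in general capillary-like cells, the highest of the types in every library but the vehicle one after depletion, where 13 venous-like cells had 194 CPM. Tip-like cells, named by genes such as Esm1, Apln and Plvap, stood at 69.6, 119, 112 and 95.1 CPM of Tek. They were at the same time higher in Angpt2 (280, 127, 229 and 131 CPM, against 0 to 5.87 CPM in venous-like cells), in Flt4 (178, 75.1, 161 and 113 CPM) and in Pgf (28.6, 51.8, 46.5 and 11.9 CPM) than the endothelial class as a whole. Flt1 was high in both arterial-like cells (2437, 2604, 1836 and 1498 CPM) and tip-like cells (2700, 1650, 2807 and 1985 CPM), and Tie1 lay between 164 and 325 CPM over types and libraries. Among the ligands, Vegfc over all libraries was 241 CPM in an arterial-like sub-cluster, 237 CPM in an unnamed one led by Ackr1 and Selp, and 217 CPM in a general capillary-like one. Vegfa was likewise 237 and 233 CPM in the arterial-like and general capillary-like sub-clusters against 13 CPM in a tip-like sub-cluster of 83 cells. Taken as whole types over all libraries, Vegfa was 94.7 CPM in arterial-like, 168 CPM in general capillary-like and 20.9 CPM in tip-like cells.

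Over the whole endothelial class, few members differed between treatment labels. Of 8 members compared before depletion none was apart, where 4.17% of all genes were. After depletion 1 of 9 was apart, against 4.03% of genes, and it was Pgf, with 23 UMIs in the vehicle library and 3 in the one labelled tamoxifen (14.3 and 3.29 CPM, a ratio of 0.23 with an interval of 0.0442 to 0.762). The log2 difference of Pgf was -0.29 when no cells were removed as doublets, which ends that call. Between preparations none of 9 members was apart with vehicle (7.1% of genes) and 1 of 8, Angpt2, in the libraries labelled tamoxifen (5.09%). Endothelial Vegfa stood at 69, 60.3, 69.3 and 57.1 CPM, at 1 and 0.946 times the vehicle level. The 8 epithelial markers summed to 1642, 6678, 4431 and 3570 CPM in these endothelial-like cells and the 7 neutrophil markers to 756, 3.73, 594 and 4.39 CPM, and their part in the endothelial levels was not tested.

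Over the epithelial-like class as a whole only Vegfa and Flt1 reached 10 CPM, and of these Flt1 differed more between treatment labels. It stood at 49.5 (47.0 to 52.1), 46.2 (45.1 to 47.4), 18.4 (17.0 to 19.9) and 15.3 (14.7 to 16.0) CPM, from 1488, 5946, 608 and 1912 UMIs. Both libraries labelled tamoxifen lay below both vehicle libraries, 2.69-fold lower (2.45 to 2.96) before depletion and 3.01-fold lower (2.86 to 3.17) after it. Of 2 members compared in epithelial-like cells Flt1 alone was apart, in both preparations, where 2% and 1.96% of all genes were. The steps between preparations were smaller, 0.934 and 0.835 times, and none of the members compared was apart between preparations (0.672% of genes with vehicle and 0.581% labelled tamoxifen). In thinned cells, 5.06%, 5.92%, 2.13% and 2.24% had an Flt1 UMI, against 0% and 0.529% of B cells and 0.0887% and 0.446% of T cells before depletion.

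The epithelial Flt1 counts were set beside the genes of the other cells that carry it. Before depletion the vehicle endothelial-like cells held 1151 Kdr and 3765 Flt1 UMIs, and the vehicle epithelial-like cells 4 Kdr and 1488 Flt1 UMIs. After depletion the vehicle epithelial-like cells held 3 Kdr and 5946 Flt1 UMIs. The 7 endothelial markers summed to 88.2, 84.5, 75.5 and 80.1 CPM in epithelial-like cells, nearly the same in all 4 libraries, and Esam, Egfl7 and Pecam1 made up most of it while Cdh5, Cldn5 and Emcn were under 0.5 CPM. Of the alveolar macrophage markers, Marco and Siglecf were at 0 in the epithelial-like cells of both libraries after depletion, where immune cells were nearly absent. These zeros do not speak to the libraries before depletion, and the other markers of that list are not given here. The 11 mural markers were all detected in epithelial-like cells and summed to 80.6, 93.3, 74.2 and 60.9 CPM. The part of mural and other cells in the epithelial Flt1 level was not tested.

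**Figure D4:**
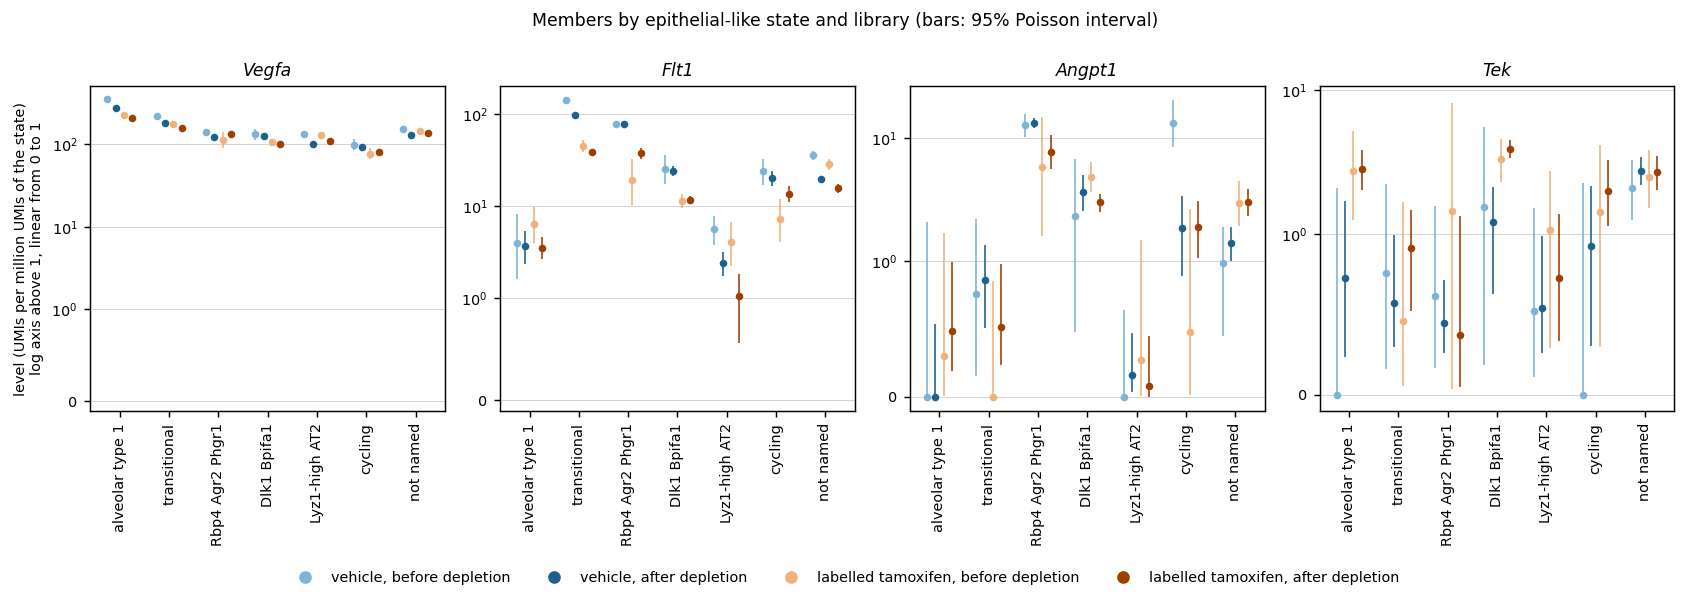
Levels of Vegfa, Flt1, Angpt1 and Tek (CPM) in the epithelial states and libraries, with exact 95% Poisson intervals. Flt1 was highest in the transitional state (140 and 97.9 CPM with vehicle, 44.7 and 38.8 CPM in the libraries labelled tamoxifen), and Vegfa in the alveolar type 1-like state.

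By state, Flt1 was highest in the transitional Cldn4 Krt7 cells, at 140, 97.9, 44.7 and 38.8 CPM. There it was 3.13-fold lower (2.65 to 3.7) in the library labelled tamoxifen before depletion and 2.52-fold lower (2.31 to 2.75) after it, the 1 of 2 members apart in each, where 5.53% and 3.19% of genes were. The Rbp4 Agr2 Phgr1 state stood at 77.1, 76.4, 19.0 and 37.0 CPM, the third value from 16 cells, and was 2.07-fold lower (1.79 to 2.4) after depletion, 1 of 3 members apart where 2.75% of genes were. The Dlk1 Bpifa1 state stood at 25.4, 23.8, 11.3 and 11.7 CPM, the first value from 37 cells with 33 UMIs, and was 2.03-fold lower (1.74 to 2.37) after depletion. On the log2(CPM + 1) scale that was short of 2-fold, so none of 2 members was apart there (3.37% of genes). Cycling cells stood at 23.9, 19.8, 7.16 and 13.5 CPM, the values before depletion from under 50 cells. The Flt1-poor states showed no common direction: alveolar type 1-like cells at 3.97, 3.63, 6.39 and 3.52 CPM and Lyz1-high alveolar type 2-like cells at 5.54, 2.37, 4.02 and 1.05 CPM.

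Flt1-rich and Flt1-poor states were not equally frequent, as the shares above show. At the vehicle make-up of sub-clusters the log2 difference of Flt1 was -1.24 before depletion (3 sub-clusters) and -0.94 after it (13 sub-clusters), which is short of 2-fold in the latter. Over sub-clusters with at least 50 cells in both libraries and at least 20 Flt1 UMIs, Flt1 was lower in 3 of 3 before depletion, and after depletion lower in 9 and higher in 2 of 11, the log2 differences running from -2.71 to 1.90 with a median of -0.50. Among the coarser clusters before depletion, Flt1 was slightly higher in the library labelled tamoxifen in cluster 15, led by Bex2 and Adarb2 (11.0 and 12.3 CPM, 1.12 times, 0.801 to 1.59), and in cluster 16, led by Dcpp1, Dlk1 and Bpifa1 (13.2 and 15.8 CPM, 1.2 times, 0.826 to 1.78). Both intervals included 1. The direction was thus not shared by every group of epithelial-like cells.

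**Figure D5:**
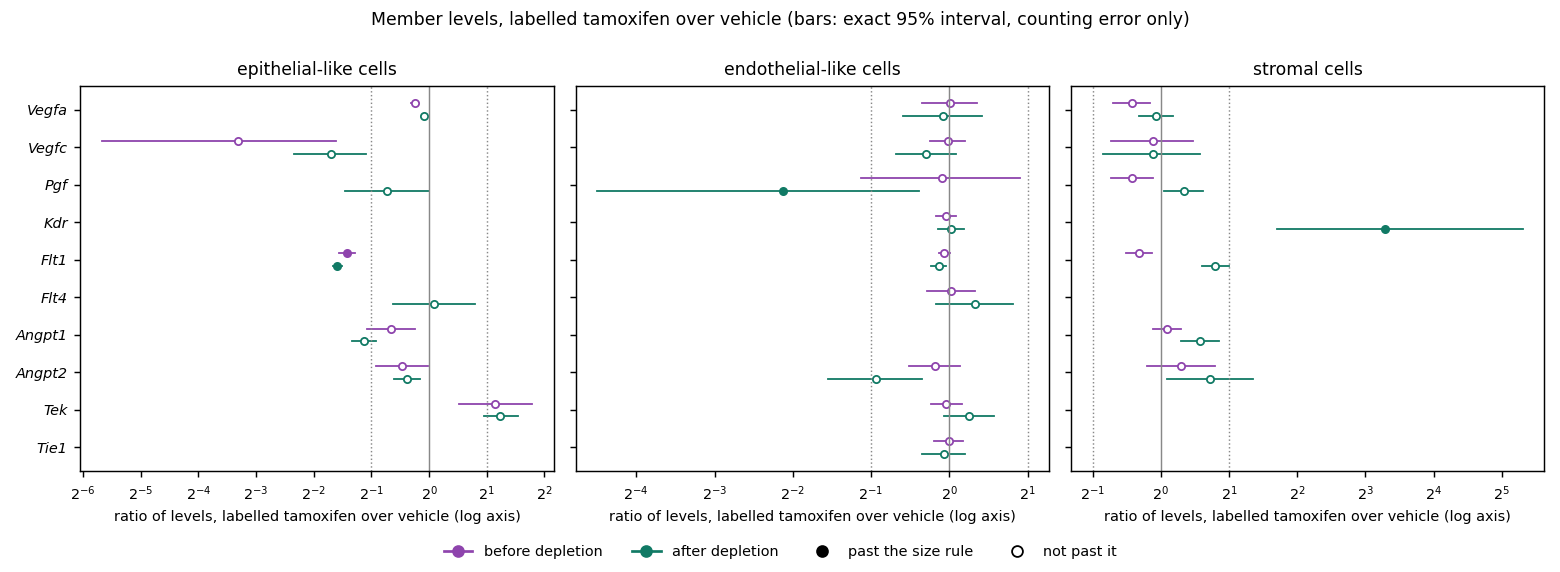
Ratios of CPM, labelled tamoxifen over vehicle (log axis), for members with at least 20 UMIs over both libraries in epithelial-like, endothelial-like and stromal cells, with exact 95% intervals and filled points past the size rule. Epithelial Flt1 lies below 1 in both preparations, and endothelial Kdr (0.969 and 1.02) lies at 1.

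In stroma none of 6 members compared was apart before depletion (5.69% of genes), and 1 of 7 after it (5.19%). That was Kdr, at 0.709, 1.51, 8.76 and 14.8 CPM, with 4 and 19 UMIs after depletion and a ratio of 9.8 (3.26 to 39.6). In mural-like cells, under 50 in each library, it stood at 6.26, 2.19, 32.9 and 28.4 CPM. That was 15 UMIs before and 10 UMIs after depletion in the libraries labelled tamoxifen. The other 9 UMIs after depletion were in fibroblast-like cells (13.4 CPM, against 0 UMIs in the vehicle library). The 7 endothelial markers were higher in the same libraries, summing to 61.7, 68.8, 158 and 170 CPM in stromal cells. Their part in the stromal Kdr level was not tested. The Kdr interval takes UMIs as independent, and their spread over cells is not given here. In the fibroblast-like cells alone after depletion, 2 of 6 members were apart, where 4.69% of genes were. Flt1 was 3.19 times higher (1.93 to 5.43) in the library labelled tamoxifen, with 24 and 51 UMIs. Vegfc was 2.14-fold lower (1.15 to 4.22), with 45 and 14 UMIs. Neither difference was seen before depletion, where the library labelled tamoxifen held 42 fibroblast-like cells and was not compared. Flt1 stood the other way round there, at 62.6 CPM with vehicle and 14.2 CPM in the library labelled tamoxifen. The Vegfc intervals overlapped there, at 19.4 to 36.6 and 18.5 to 41.5 CPM. Between the vehicle preparations Flt1 was likewise apart, at 0.381 times (0.233 to 0.601) after depletion.

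Other genes of the pathway, from lists drawn up for these cells, showed few differences by the same size rule. In epithelial-like cells 9 of 18 other angiogenic ligands and regulators could be compared and none was apart in either preparation, with median log2 differences of -0.08 and -0.07 against -0.03 and 0.01 over all genes. The one with the most UMIs, Thbs1 (thrombospondin 1, an inhibitor of vessel growth), stood at 216, 196, 337 and 339 CPM. None of 6 and 5 other endothelial receptors and co-receptors was apart, the one with the most UMIs being the co-receptor Nrp1 at 158, 120, 201 and 193 CPM. Of 20 hypoxia-response genes compared, none was apart before depletion and 1 was lower after it (1.96% of all genes were apart), Hilpda, a lipid-droplet gene induced by hypoxia, at 108 and 52.6 CPM.

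In endothelial-like cells 2 of 12 other ligands were lower in the library labelled tamoxifen before depletion (4.17% of all genes were apart) and none of 10 after it. They were Apln (apelin, made by tip cells), at 172 and 80.9 CPM, and Sema3a, at 25.9 and 3.88 CPM. None of 18 other receptors was apart in either preparation, and Ptprb, a phosphatase that restrains Tek, stood at 1032, 855, 978 and 957 CPM. None of 20 hypoxia genes and none of 13 endothelial identity genes was apart, with Egfl7 at 1012, 1279, 1315 and 1477 CPM. In stroma after depletion 2 of 12 other ligands (Vegfd and Adm), 3 of 12 other receptors (Ptprb, Ramp2 and Cxcr4) and 4 of 6 endothelial identity genes were higher and 1 hypoxia gene (Egln3) was lower, where 5.19% of all genes were apart. Before depletion 3 of 6 identity genes and 1 of 13 other receptors were higher (5.69% of all genes were apart). Emcn (endomucin, an endothelial surface protein) was the list gene apart in both preparations, with 1, 0, 53 and 28 UMIs. In the libraries labelled tamoxifen it was found in 2.38% of 84 and 1.74% of 115 stromal cells, so very few cells supplied these UMIs. The endothelial marker sums of 61.7, 68.8, 158 and 170 CPM in stromal cells stand beside these counts, and their part in them was not tested. Hilpda, Apln, Sema3a and the stromal genes were named after their values were seen.

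Genes whose levels ran most alike with each member were sought over 35 sums of cells (15 cell classes or clusters by library, 13789 genes), as a description in which sums of 1 library share depth. Kdr ran closest with Robo4 (r = 0.96), an endothelial guidance receptor, and next with Tie1 (r = 0.95), the other member, and Unc45b (r = 0.95). Tie1 ran closest with Unc45b, Shank3 and Grp (r = 0.99 each), Tek with Ephb1, Scgb3a1 and Lyve1 (r = 0.98 each) and Flt4 with Stmn2, Ptprb and Clca3a1 (r = 0.96 each). Flt1, spread over more cell types, ran closest with Dysf (r = 0.91), Cav1 (r = 0.90) and Bmpr2 (r = 0.90). Among the ligands, Angpt1 ran closest with Rasl12 (r = 0.94), Angpt2 with Nsg1 (r = 0.94), Vegfc with Jmjd6 (r = 0.89), Pgf with Mdga1 (r = 0.89) and Vegfa with Cdk18 (r = 0.83).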

How the data were processed

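Droplet 3′ single-cell libraries (4, 1 per group) were deposited as UMI counts per gene and cell, per the file headers made with Cell Ranger 7.0.1. Version 7.2.0 and build mm10 are per the submitters' processing notes, and intron and strand settings are not given in the sources used here. Cells with under 200 genes, over 20% mitochondrial UMIs or a Scrublet score over 0.25 were left out, since the automatic doublet threshold marked too few cells in 3 libraries. Clustering (scanpy 1.11.5, 2000 variable genes, 40 components, 15 neighbours, Leiden resolution 1) left out the 10 genes, and clusters were named by marker lists. Counts were summed per class and library and divided by the class total (CPM). Ratios carry exact conditional binomial intervals, shares Clopper-Pearson intervals. Shares of cells with a UMI were taken after thinning to 2000 UMIs, leaving out shallower cells. Coordinates are GRCm38 (GENCODE), promoters RefSeq, with 8 of 10 members matched. The methods were tested on simulated data. Named genes are the 10 members, the 3 genes most alike to each by Pearson r, the gene of each list with the most UMIs, and list genes apart in both preparations (Emcn in stroma). List genes apart in 1 preparation are named outside this rule. The lists were other angiogenic ligands and regulators, other endothelial receptors, hypoxia response and endothelial identity. Members and lists were chosen with earlier results of these data known. Alternatives changed the pseudocount (1 CPM), scaling (TMM in edgeR 4.0.16, median of ratios), cell filters, doublet removal, cell gate and thinning. One further allele of the shared genotype is not reported here.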

Additional observations from a re-analysis of the deposited data

How the results depend on the processing

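With 1 library per group, nothing here measures the spread between animals. Epithelial Flt1 was lower in the libraries labelled tamoxifen under 15 of 15 alternatives in each preparation. Before depletion its log2 difference was -1.22 with a pseudocount of 5 CPM, -1.10 as a mean over cells, -1.52 without the Lyz1-high state, -1.53 without the shallow sub-cluster 0, -1.15 without the Rbp4 Agr2 Phgr1 state and -1.24 at the vehicle make-up. After depletion it was -1.33 with a pseudocount of 5 CPM, -1.41 as a mean over cells, -1.42 under a gate on each cell, -1.61 without the Lyz1-high state, -1.41 with cluster 13, -1.17 without the Rbp4 Agr2 Phgr1 state and -0.94 at the vehicle make-up. Epithelial Vegfa before depletion was -0.44 under the gate, -0.31 with cluster 13 and -0.10 at the vehicle make-up. After depletion Vegfa was -0.053 as a mean over cells, -0.18 under the gate, -0.13 without the Lyz1-high state, -0.16 without the Rbp4 Agr2 Phgr1 state, -0.049 without the transitional state and 0.016 at the vehicle make-up. The cause of these shifts was not tested. Endothelial Kdr stayed between -0.07 and 0.04 before and between -0.08 and 0.03 after depletion. With no CPM minimum, 385 and 348 epithelial genes were apart (187 and 179 with it), and at 4-fold 33 and 28, against 72 and 39 endothelial genes (392 and 361 at 2-fold). Of the endothelial genes apart before depletion 102 were higher and 290 lower, and 149 and 239 with median-of-ratios scaling. The alternatives that leave out states, sub-clusters or cluster 13, or reweight them, were chosen after seeing the data. The vehicle make-up covers only sub-clusters with at least 50 cells in both libraries, 3 of them before depletion. The gate could not be used for endothelial cells, since 0 to 6 cells per library passed it. No paired analysis was possible because the groups share fewer than 2 replicate numbers. A fit that takes the 2 preparations as pairs was not run, since the labels do not say that they are independent samples.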
